A study of Mus musculus with 24 samples.

Results

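Chromatin accessibility was examined at 10 genes of MHC class II antigen presentation, namely H2-Aa, H2-Ab1, H2-Eb1, H2-DMa, H2-DMb1, H2-DMb2, H2-Oa, H2-Ob, Ciita and Cd74, in alveolar-like bone marrow-derived macrophages (BMDMs) with and without the aryl hydrocarbon receptor (AhR). A consensus peak belonged to a gene when it overlapped the gene body or the 10 kb on either side of it (mm10, GENCODE vM21), and each peak was given to the nearest of the 10 genes. This rule, which used no measured value, found 71 of the 184158 consensus peaks, and all 71 passed the filter on low counts. Ciita held 19 of them, H2-DMa 8, H2-Eb1 7, H2-Aa, H2-Oa and Cd74 6 each, H2-Ab1, H2-DMb1 and H2-Ob 5 each, and H2-DMb2 4. Peaks are named by their gene and numbered in order along the chromosome.

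ATAC-seq, which marks open DNA by where a transposase inserts, was carried out on 24 libraries in 4 groups of 6, each library from a separate animal of its group. WT cells came from C57/B6/J mice and AhR-KO cells from B6.129-Ahr tm1Bra/J mice, in which AhR is lost in every tissue, so that precursors and culture lacked it as well as the macrophages. In all 4 groups marrow was cultured in 10% serum with GM-CSF at 10 ng/ml and TGF-β at 2 ng/ml, and the labels state that the ionophore A23187 was given at 5 µM for 10 min before harvest. LPS, the bacterial lipopolysaccharide sensed by TLR4, was added at 97 EU/ml from day 6 for 24 h in the WT LPS and AhR-KO LPS groups, while WT unstimulated and AhR-KO unstimulated cells received none. Whether the unstimulated and LPS libraries share animals is not stated. The question addressed here is how far genotype, LPS and their combination changed accessibility at the class II genes.

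MHC class II molecules are αβ heterodimers that carry peptides from endosomes to the cell surface for recognition by CD4+ T cells. Their chains assemble with the invariant chain, cathepsins trim that chain, and the H2-DM heterodimer exchanges its remnant for peptide while H2-O restrains H2-DM. Ciita is the transactivator that switches the whole set on through RFX, CREB and NF-Y proteins bound to the X and Y boxes of class II promoters, and its own transcription starts from several alternative promoters used in different cell types.

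The promoters of 6 member genes carried a perfect Y box, the NF-Y motif TGATTGG searched on both strands, and these stretches are shown because the boxes are what the class II genes share in sequence. RefSeq (GRCm38.p6) supplied promoter entries for 7 of the 10 genes, in 8 entries of 300 bases (250 before to 50 after the start). H2-Ab1, Ciita and Cd74 had none. The Y box stood in 6 of the 8 entries, against 7.82% of 32851 mouse promoters, and a string resembling the X box, AACNNATGATG, stood in 4 of the 8 against 0.137%. The second string was written down after these promoters had been read, so its count describes them and no more. Each stretch of 82 bases is printed 5′ to 3′ on the strand of the gene, with both motifs in capitals. The stretches lie at chr17:34092274-34092355 (H2-Oa), chr17:34145097-34145178 (H2-DMb2), chr17:34153068-34153149 (H2-DMb1), chr17:34238786-34238867 (H2-Ob) and chr17:34305746-34305827 (H2-Eb1) on the plus strand, and at chr17:34287852-34287933 (H2-Aa) on the minus strand.
H2-Aa: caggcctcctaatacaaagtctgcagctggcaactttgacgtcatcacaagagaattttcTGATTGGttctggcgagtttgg
H2-Eb1: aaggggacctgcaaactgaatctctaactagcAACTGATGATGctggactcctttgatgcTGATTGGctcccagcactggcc
H2-DMb1: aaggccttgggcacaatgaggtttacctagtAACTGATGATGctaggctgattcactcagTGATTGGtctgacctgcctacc
H2-DMb2: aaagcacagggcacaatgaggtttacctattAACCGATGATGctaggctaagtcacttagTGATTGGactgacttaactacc
H2-Ob: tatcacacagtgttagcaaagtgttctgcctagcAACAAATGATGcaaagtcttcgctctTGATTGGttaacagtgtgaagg
H2-Oa: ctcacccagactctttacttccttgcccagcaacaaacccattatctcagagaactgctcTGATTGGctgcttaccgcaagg

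In the 4 promoters that held both strings, the X-like string lay 15 to 18 bases before the Y box. Each stretch lay within the consensus peak over that gene's start. For H2-DMb2 this was peak 3, the start-site peak that was called between genotypes.

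Also shown is the centre of Ciita peak 3, at chr16:10477554-10477853 (mm10, plus strand), the peak with the lowest log2 fold change in AhR-KO among the 71. Capitals mark a match to GCGTG or its complement CACGC, the core of the AhR response element, and a match to TGANTCA, the AP-1 motif. Among windows of 300 bases at the centres of 184060 consensus peaks, 16% held the first and 17.9% the second. Of the 71 member windows, 11 held the first and 10 the second. The first stood in 0 of the 8 member promoter entries, against 32.4% of all mouse promoters. Binding of AhR was not tested.
Ciita peak 3: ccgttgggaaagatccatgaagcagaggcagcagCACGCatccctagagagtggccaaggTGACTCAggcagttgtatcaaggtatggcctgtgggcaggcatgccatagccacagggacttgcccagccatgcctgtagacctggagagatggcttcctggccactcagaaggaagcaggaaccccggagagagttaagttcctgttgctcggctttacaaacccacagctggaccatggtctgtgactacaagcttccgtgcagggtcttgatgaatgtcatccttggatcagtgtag

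Values are CPM, the reads in a peak for each mega-read (M) of the library's reads in peaks, after TMM scaling. Reads in peaks totalled 8.54 to 23.1 M per WT unstimulated and 25.1 to 34.6 M per WT LPS library, and 18.9 to 25.7 M and 22.4 to 28.5 M per AhR-KO library without and with LPS. The lowest total belonged to WT unstimulated replicate 5. No consensus peak covered exon 2 of Ahr, which this allele is known to lack, so the deletion could not be read from the peaks. At the start site of Ahrr, a canonical AhR target, accessibility ran from 9.52 to 13.3 CPM in WT unstimulated and from 2.60 to 4.13 CPM in AhR-KO unstimulated libraries. A peak was called different when the Benjamini-Hochberg adjusted p of edgeR's quasi-likelihood test over all 174193 tested peaks was at most 0.05 and the fold was at least 1.5, and ± after a log2 fold change is its standard error. In bulk libraries, fewer cells with an open site and less opening per cell cannot be told apart.

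In unstimulated cells 8 member peaks were higher and 5 lower in AhR-KO than in WT. Over all tested peaks 9.95% were higher and 12.6% lower, and the shares of the members were 11.3% and 7.04%. The median log2 fold change was 0.17 over the members and -0.02 over all peaks, and with the size factors of DESeq2 (RLE) in place of TMM it was 0.24 and 0.04, so the sign of the median over all peaks depended on the scaling. With LPS, 3 member peaks were higher and 7 lower in AhR-KO, with backgrounds of 13.4% higher and 13.1% lower. The median was then -0.09 over the members and 0.02 over all peaks. Both treatments shared 2 lower and 3 higher member peaks, counts for which the share over all tested peaks was not taken.

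LPS itself raised 16 member peaks and lowered 11 in WT cells, where 25.4% of all peaks rose and 21.6% fell. In AhR-KO cells it raised 15 and lowered 18, against backgrounds of 27.3% and 21.5%. The interaction, the genotype effect with LPS minus that without, was called at 12 member peaks, and in all 12 it was negative. Negative interactions made up 4.58% of all peaks and positive ones 5.83%, and the estimate was below 0 at 54 of the 71 member peaks and at 46.3% of all tested peaks. With RLE scaling it was below 0 at 54 members and at 50.7% of all peaks. Of the 12 calls, 6 held whichever library was left out, and leaving out AhR-KO unstimulated replicate 6 gave 7 calls, against 8 when the shallow WT unstimulated replicate 5 was left out.

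**Figure D1:**
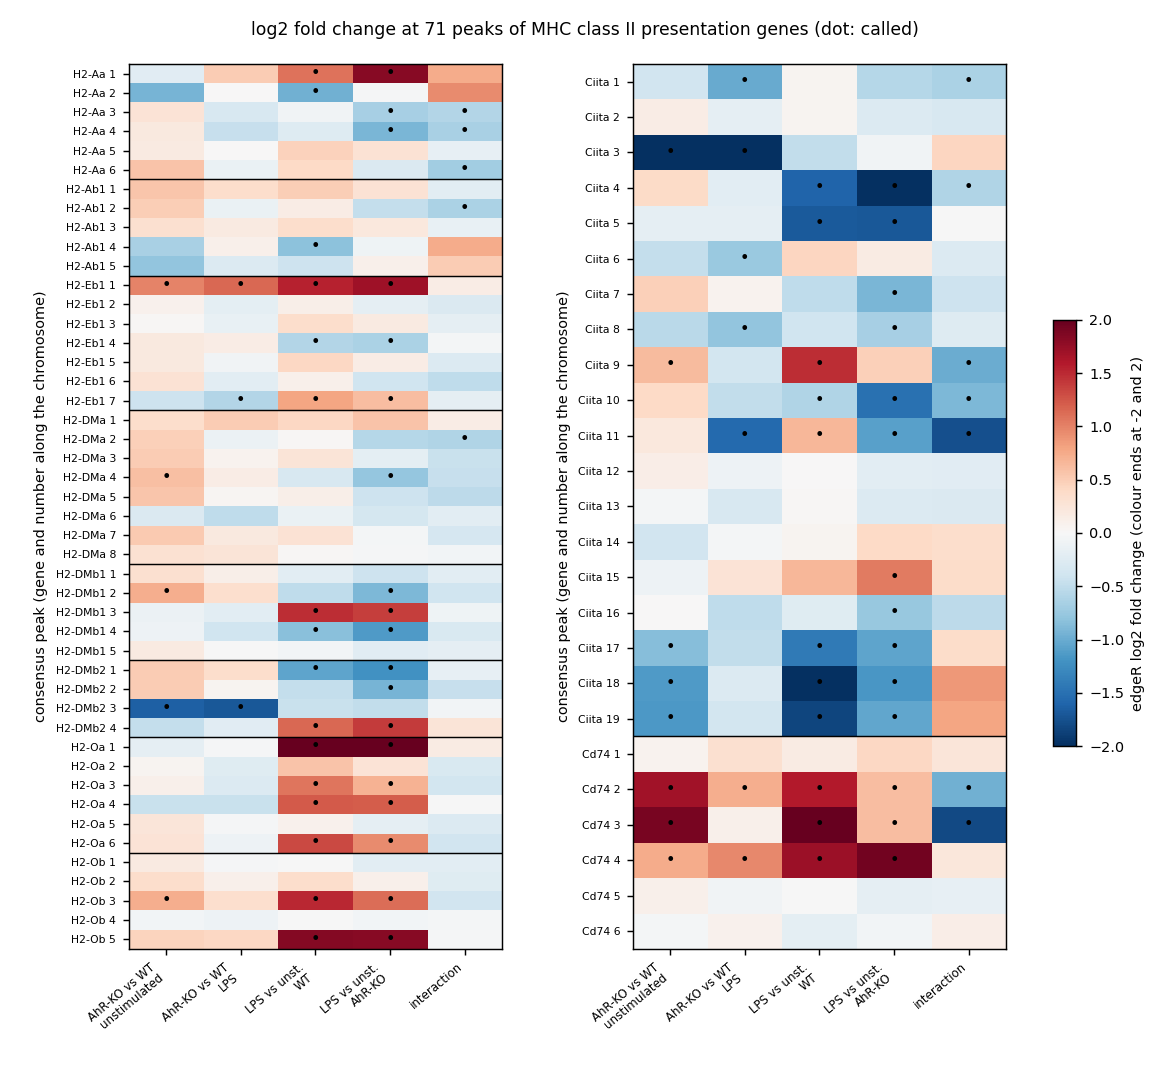
edgeR log2 fold changes at the 71 peaks, 1 row each, in the 4 pairwise comparisons and the interaction; red is higher, blue is lower, colours end at 2 and -2, and a dot marks a called peak. The dots in the genotype columns lie mostly in Ciita, which has the most rows, and Cd74, and those in the interaction column are all on blue.

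Of the 13 peaks over a transcription start site (TSS) of a member gene, 1 was called between genotypes, H2-DMb2 peak 3, which was lower without and with LPS. LPS raised 1 and lowered 1 of the 13 in WT, and raised 1 and lowered 4 in AhR-KO. The 58 peaks elsewhere carried the remaining calls, 12 for genotype without LPS and 9 with it. The interaction was called at 2 of the 13 and at 10 of the 58. Shares over all start-site peaks and all other peaks were not taken, so these counts cannot show whether the split is particular to these genes.

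Among the genes for the peptide-binding chains, H2-Aa encodes the α chain of I-A. Its start-site peak (peak 3, chromosome 17, 34286010 to 34288351) ran from 6.75 through a median of 7.70 to 8.78 CPM in WT unstimulated, from 8.38 through 9.22 to 10.8 in AhR-KO unstimulated, from 5.57 through 7.51 to 8.54 in WT LPS and from 4.91 through 5.80 to 7.09 in AhR-KO LPS. Every AhR-KO LPS library lay below every AhR-KO unstimulated library, while the WT groups overlapped. The log2 fold change with LPS was -0.67 ± 0.10 in AhR-KO (edgeR adjusted p 6.72e-07), which was called, and -0.08 ± 0.11 in WT (edgeR adjusted p 0.535). The interaction was -0.59 ± 0.15 (edgeR adjusted p 0.00547), just past the fold threshold, and it held in 13 of the 24 fits that left out 1 library. H2-Aa peak 6, upstream of the gene and picked after its values were seen, gave an interaction of -0.69 ± 0.14 (edgeR adjusted p 0.000973), which held in all 24.

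H2-Ab1 encodes the I-A β chain. Its start-site peak (peak 3, chromosome 17, 34263029 to 34265359) had medians of 12.6 CPM without and 16.5 CPM with LPS in WT, and of 15.8 and 18.9 CPM in AhR-KO. The groups overlapped in all 4 comparisons and none was called, the log2 fold changes lying between 0.17 and 0.35. Intronic H2-Ab1 peak 2, also picked later, had an interaction of -0.63 ± 0.13 (edgeR adjusted p 0.00112).

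H2-Eb1 encodes the I-E β chain. Its start-site peak (peak 2, chromosome 17, 34304466 to 34306664) had group medians of 10.1 to 11.5 CPM, with overlap throughout and no call. By contrast, the small peak 1, 7042 bases upstream of the start, rose with both AhR loss and LPS. It ran from 0.0883 through 0.314 to 0.392 CPM in WT unstimulated, from 0.261 through 0.608 to 0.866 in AhR-KO unstimulated, from 0.628 through 0.813 to 1.2 in WT LPS and from 1.34 through 1.95 to 2.40 in AhR-KO LPS. The AhR-KO LPS libraries stood above every library of the other 3 groups. The genotype log2 fold change was 1.0 ± 0.32 without LPS (edgeR adjusted p 0.0114) and 1.14 ± 0.20 with it (edgeR adjusted p 1.42e-05). The authors' own peak lists called this site in 3 of 6 AhR-KO LPS libraries and in 0 of 6 of each other group.

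The H2-DM and H2-O genes encode the peptide editors. H2-DMa, the α chain of H2-DM, has annotated starts in peak 8 (chromosome 17, 34134452 to 34135992), with group medians of 21.6 to 24.8 CPM. Its genotype log2 fold change was 0.31 ± 0.08 without LPS (edgeR adjusted p 0.00201), under the 1.5-fold threshold although the groups did not overlap. The annotated start of a longer transcript lies upstream in peak 3, which also covers the start of Brd2, a neighbouring chromatin reader, so its values cannot be given to 1 gene.

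H2-DMb1 and H2-DMb2 encode H2-DM β chains. They are adjacent near-identical copies, and reads that align equally well to both may have been split or lost between them, so their values are uncertain to that extent. H2-DMb2 has 2 start-site peaks that behaved differently. At peak 2 (chromosome 17, 34142569 to 34143782), over the upstream start, LPS lowered accessibility in AhR-KO from a median of 30.6 CPM (21.6 to 34.6) to 14.8 CPM (12.4 to 18.4), and the groups did not overlap. The log2 fold change was -0.93 ± 0.10 in AhR-KO (edgeR adjusted p 1.07e-09) and -0.47 ± 0.10 in WT (edgeR adjusted p 0.000156), the latter under the fold threshold. The interaction of -0.46 ± 0.14 was also under it (edgeR adjusted p 0.0277).

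H2-DMb2 peak 3 (chromosome 17, 34145006 to 34145355), which holds the X-like string and the Y box of the H2-DMb2 promoter, was much weaker and differed by genotype. It ran from 1.28 through 2.33 to 3.10 CPM in WT unstimulated, from 0.410 through 0.816 to 1.03 in AhR-KO unstimulated, from 0.890 through 1.63 to 2.74 in WT LPS and from 0.284 through 0.562 to 0.722 in AhR-KO LPS. Neither pair of genotype groups overlapped. The log2 fold change was -1.64 ± 0.26 without LPS (edgeR adjusted p 4.67e-06) and -1.69 ± 0.27 with it (edgeR adjusted p 3.40e-06). It was in the peak lists of 3 of 6 WT libraries in each treatment and of 0 of 6 AhR-KO libraries.

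At H2-DMb1 the start-site peak 1 was called in no comparison, its group medians lying between 6.93 and 10.4 CPM. Exonic peak 2 was higher in AhR-KO unstimulated (median 3.21 CPM, 2.63 to 4.29) than in WT unstimulated cells (1.94 CPM, 1.83 to 2.33) without overlap. That log2 fold change was 0.73 ± 0.15 (edgeR adjusted p 0.000111). In AhR-KO cells LPS lowered the same peak to a median of 1.82 CPM, a log2 fold change of -0.90 ± 0.14 (edgeR adjusted p 6.77e-07). In WT cells this peak also stood lower with LPS, at a median of 1.47 CPM (1.23 to 1.53), without overlap of the WT groups. Neither the WT change nor the interaction was called at this peak. Peak 4 of H2-DMb2, exonic in that gene, rose with LPS in WT (1.15 ± 0.13, edgeR adjusted p 1.16e-09) and in AhR-KO (1.40 ± 0.14, edgeR adjusted p 1.74e-11).

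H2-Oa and H2-Ob, whose products form the H2-DM inhibitor H2-O, had calls mostly for LPS, as did all tested peaks, of which LPS called 47.0% in WT and 48.8% in AhR-KO and genotype 22.6% and 26.5%. At H2-Oa 4 of 6 peaks rose with LPS in each genotype and none fell, and no peak was called between genotypes. The start-site peak 3 (chromosome 17, 34092254 to 34093688) ran from 5.55 through 6.20 to 7.02 CPM in WT unstimulated and from 11.6 through 13.1 to 14 CPM in WT LPS. In AhR-KO it ran from 5.71 through 6.39 to 8.35 CPM without LPS and from 9.90 through 10.3 to 13.4 CPM with it. LPS and unstimulated libraries did not overlap in either genotype, and the log2 fold change was 1.07 ± 0.10 in WT (edgeR adjusted p 4.15e-12) and 0.70 ± 0.09 in AhR-KO (edgeR adjusted p 4.11e-08). The difference of -0.37 ± 0.13 between them did not pass the test (edgeR adjusted p 0.0550).

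H2-Ob, the H2-O β chain, gained accessibility with LPS at intronic peak 5 (chromosome 17, 34249688 to 34251924), 11860 bases downstream of its start. This peak ran from 1.86 through 2.56 to 2.97 CPM in WT unstimulated, from 3.03 through 3.31 to 3.95 in AhR-KO unstimulated, from 7.52 through 9.19 to 9.88 in WT LPS and from 11 through 11.6 to 15.1 in AhR-KO LPS. No pair of compared groups overlapped. LPS raised it by a log2 fold change of 1.84 ± 0.11 in WT (edgeR adjusted p 1.16e-16) and 1.81 ± 0.10 in AhR-KO (edgeR adjusted p 9.53e-18). The genotype differences of 0.44 ± 0.12 and 0.41 ± 0.09 stayed under the fold threshold, as did every change at the H2-Ob start site. Exonic H2-Ob peak 3, picked after its values were seen, also rose with LPS in both genotypes, and was the only peak of either gene called between genotypes. Its mean was 0.662 ± 0.282 CPM in WT unstimulated and 1.14 ± 0.324 CPM in AhR-KO unstimulated libraries (SD, n = 6), a log2 fold change of 0.73 ± 0.24 (edgeR adjusted p 0.0151) with overlap of the groups.

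Cd74, the invariant chain on chromosome 18, had no called change at its start site and had called changes at sites upstream. The start-site peak 5, 4709 bases wide, had medians of 78.5 CPM without and 77.7 CPM with LPS in WT, and of 86.4 and 74.4 CPM in AhR-KO. Its log2 fold changes lay between -0.17 and 0.10, the groups overlapped in every comparison and none was called.

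Upstream of it, Cd74 peak 4, 1805 bases before the start, rose with AhR loss and with LPS. It ran from 0.528 through 0.680 to 0.920 CPM in WT unstimulated, from 0.956 through 1.25 to 1.45 in AhR-KO unstimulated, from 1.87 through 2.36 to 3.13 in WT LPS and from 4.20 through 4.57 to 5.25 in AhR-KO LPS, and none of the 4 groups overlapped. The genotype log2 fold change was 0.74 ± 0.19 without LPS (edgeR adjusted p 0.00195) and 0.96 ± 0.13 with it (edgeR adjusted p 1.26e-07), and that of LPS was 1.71 ± 0.17 in WT and 1.93 ± 0.14 in AhR-KO. The interaction of 0.22 ± 0.24 was not called (edgeR adjusted p 0.577). The authors' own peak lists held peak 4 in 3 of 6 AhR-KO LPS libraries and in 0 of 6 of each other group.

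Cd74 peak 3, 4769 bases upstream, was higher in AhR-KO in unstimulated cells and was not called between genotypes with LPS. It ran from 0.349 through 0.677 to 1.16 CPM in WT unstimulated and from 1.78 through 2.54 to 3.12 CPM in AhR-KO unstimulated, without overlap. With LPS it ran from 2.56 through 3.44 to 5.38 CPM in WT and from 3.41 through 3.84 to 4.47 CPM in AhR-KO, with overlap. The genotype log2 fold change was 1.91 ± 0.22 without LPS (edgeR adjusted p 8.03e-09) and 0.10 ± 0.15 with it (edgeR adjusted p 0.636), and the interaction of -1.81 ± 0.27 was called (edgeR adjusted p 1.72e-05). At Cd74 peak 2, 6681 bases upstream, AhR-KO was higher in both treatments, by 1.68 ± 0.19 without LPS (edgeR adjusted p 8.06e-09) and 0.72 ± 0.15 with it (edgeR adjusted p 0.000125), and the interaction was -0.95 ± 0.24 (edgeR adjusted p 0.00670). The peak lists held Cd74 peak 3 in 0 of 6 libraries of each unstimulated group, 3 of 6 WT LPS and 5 of 6 AhR-KO LPS libraries. Cd74 peak 2 was in 2 of 6 WT unstimulated libraries and in 6 of 6 of each other group.

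**Figure D2:**
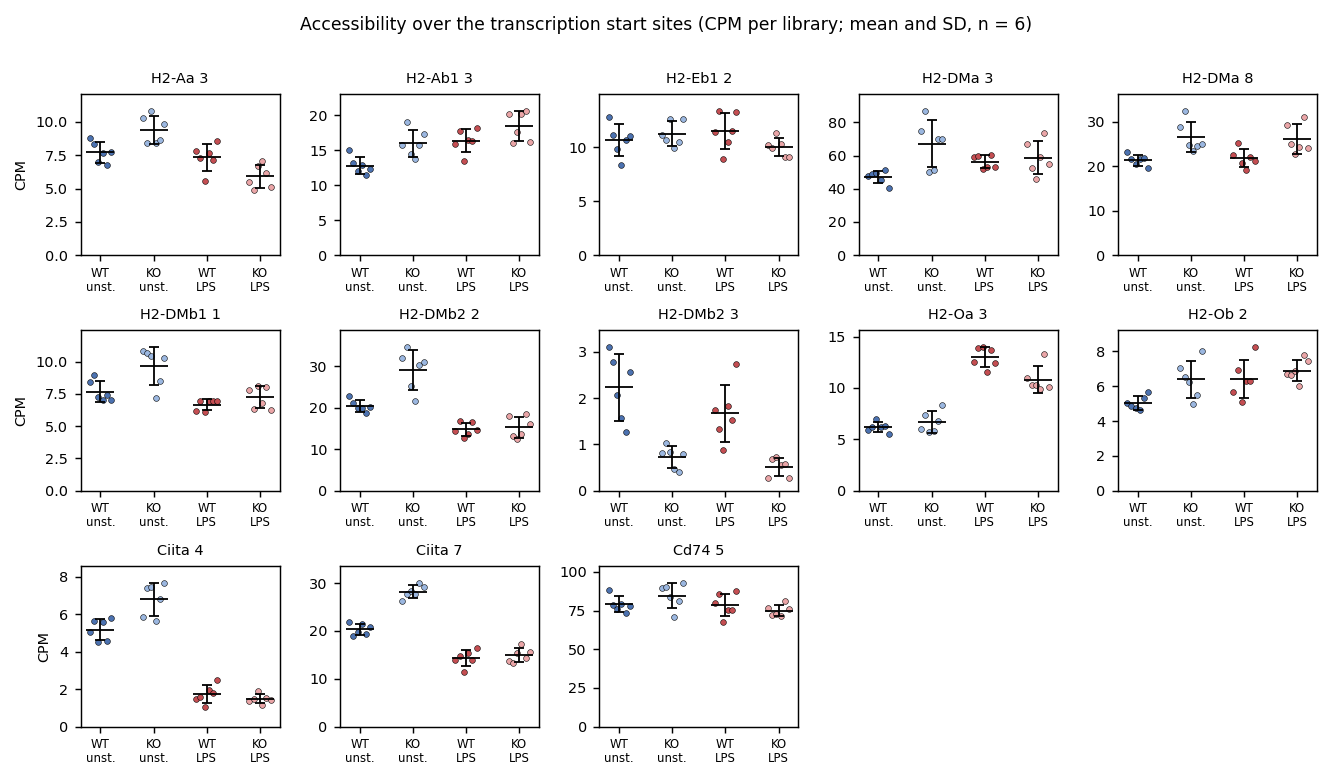
CPM of each library (points) at the 13 peaks over a start site of a member gene, in WT and AhR-KO (KO) cells, unstimulated (unst.) and with LPS; the long bar is the mean and the whiskers the SD of 6 libraries, and every axis starts at 0. H2-DMb2 peak 3 is the panel in which AhR-KO lies below WT in both treatments, H2-Oa peak 3 the one that rises most with LPS, and Ciita peak 4 the one that falls most.

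Ciita (chromosome 16, 10480059 to 10528418) held the most peaks and the most calls. Of its 19 peaks, 4 were lower and 1 higher in AhR-KO without LPS, and 5 were lower and none higher with LPS. These calls made up 26.3% of its peaks in each treatment, near the 22.6% and 26.5% of all tested peaks that were called in either direction. LPS lowered 6 and raised 2 in WT (42.1%, against 47.0% of all peaks), and lowered 10 and raised 1 in AhR-KO (57.9%, against 48.8%).

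Peak 3 (10477463 to 10477943), 2356 bases upstream of the most upstream start, stood close to 0 in AhR-KO. It ran from 1.74 through 3.36 to 6.21 CPM in WT unstimulated, from 0.174 through 0.204 to 0.325 in AhR-KO unstimulated, from 1.35 through 2.64 to 3.26 in WT LPS and from 0.108 through 0.192 to 0.327 in AhR-KO LPS. Every AhR-KO library lay below every WT library of its treatment. The log2 fold change was -3.99 ± 0.31 without LPS (edgeR adjusted p 1.08e-11) and -3.57 ± 0.31 with it (edgeR adjusted p 1.04e-10), and the interaction was 0.42 ± 0.54 (edgeR adjusted p 0.651). The peak lists held this site in 5 of 6 WT unstimulated, 6 of 6 WT LPS and 0 of 6 libraries of each AhR-KO group. The SD over WT unstimulated libraries was 1.65 CPM around a mean of 3.46 CPM.

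The start sites themselves responded to LPS. Peak 4 (10479720 to 10480663), over the most upstream start, ran from 4.50 through 5.29 to 5.79 CPM in WT unstimulated, from 5.61 through 7.10 to 7.63 in AhR-KO unstimulated, from 1.06 through 1.69 to 2.48 in WT LPS and from 1.15 through 1.46 to 1.90 in AhR-KO LPS. LPS and unstimulated libraries did not overlap, with a log2 fold change of -1.60 ± 0.14 in WT (edgeR adjusted p 4.20e-12) and -2.20 ± 0.15 in AhR-KO (edgeR adjusted p 6.69e-16). The interaction of -0.60 ± 0.21 was at the edge of both thresholds (edgeR adjusted p 0.0442) and held in 9 of the 24 fits that left out 1 library.

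Peak 7 (10486781 to 10490363), 3583 bases wide, covers the later Ciita starts, which it does not separate. Its medians were 20.2 CPM (18.9 to 21.9) without and 14.4 CPM (11.5 to 16.4) with LPS in WT, and 28 CPM (26.2 to 30.1) and 14.9 CPM (13.4 to 17.2) in AhR-KO. The unstimulated AhR-KO libraries stood above all others, and the LPS libraries of both genotypes overlapped. The genotype log2 fold change was 0.47 ± 0.07 without LPS (edgeR adjusted p 1.59e-06) and 0.06 ± 0.07 with it (edgeR adjusted p 0.506), neither past the fold threshold. LPS lowered the peak by a called log2 fold change of -0.92 ± 0.07 in AhR-KO (edgeR adjusted p 5.94e-14) and by -0.51 ± 0.07 in WT, which did not reach the fold threshold.

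Within the first part of the gene, intronic peak 5 fell with LPS to a like extent in both genotypes, by a log2 fold change of -1.68 ± 0.15 in WT (edgeR adjusted p 2.10e-12) and -1.69 ± 0.15 in AhR-KO (edgeR adjusted p 3.03e-12). Intronic peak 10 (10500515 to 10501132) had the highest level per kb of the 19. It ran from 19.1 through 22.1 to 26.3 CPM in WT unstimulated, from 27.2 through 29.6 to 32.4 in AhR-KO unstimulated, from 13 through 14.7 to 17.5 in WT LPS and from 9.11 through 9.64 to 14.6 in AhR-KO LPS. The order of the genotypes turned over, since AhR-KO was above WT without LPS, with no overlap, and mostly below it with LPS. LPS changed it by -0.60 ± 0.09 in WT (edgeR adjusted p 5.07e-07) and by -1.49 ± 0.09 in AhR-KO (edgeR adjusted p 2.58e-16), with an interaction of -0.89 ± 0.13 (edgeR adjusted p 1.18e-05).

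Intronic peak 9 (10498200 to 10498552) went the other way with LPS but had the same sign of interaction. It rose in WT from a median of 2.73 CPM (2.22 to 3.22) to 7.87 CPM (6.14 to 9.05), and in AhR-KO from 4.26 CPM (3.19 to 5.34) to 5.91 CPM (5.25 to 6.24). The log2 fold change with LPS was 1.47 ± 0.12 in WT (edgeR adjusted p 8.71e-13) and 0.47 ± 0.12 in AhR-KO, and the interaction was -1.0 ± 0.17 (edgeR adjusted p 0.000114).

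Intronic peak 11 (10515806 to 10516679), which lies nearer to the start of Dexi than to any Ciita start, was picked out after its values were seen. With LPS it ran from 1.46 through 2.20 to 3.78 CPM in WT and from 0.489 through 0.803 to 1.17 CPM in AhR-KO, without overlap, and without LPS the groups overlapped at medians of 1.5 CPM and 1.92 CPM. LPS moved it in opposite directions, by 0.67 ± 0.22 in WT (edgeR adjusted p 0.00973) and -1.09 ± 0.25 in AhR-KO (edgeR adjusted p 0.000230), and the interaction was -1.75 ± 0.33 (edgeR adjusted p 0.000467). It was the only member peak called in opposite directions by LPS in the 2 genotypes.

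Peaks 1 and 8 were lower in AhR-KO with LPS, by -1.01 ± 0.15 (edgeR adjusted p 1.33e-06) at peak 1, 9446 bases upstream, and by -0.79 ± 0.10 (edgeR adjusted p 1.66e-07) at intronic peak 8. Their AhR-KO means were below WT without LPS too, though neither difference was called. They were 1.80 against 2.32 CPM at peak 1, and 12.7 against 18.3 CPM at peak 8 (log2 fold change -0.53). The interaction was called at peak 1 and not at peak 8. At the far end, peak 19 (10535499 to 10536563), downstream of Ciita and within Dexi, fell in AhR-KO unstimulated to 1.26 to 1.84 CPM against 1.63 to 4.36 CPM in WT, a log2 fold change of -1.16 ± 0.21 (edgeR adjusted p 2.86e-05). LPS lowered peak 19 in WT to between 0.499 and 1.34 CPM, by -1.83 ± 0.21 (edgeR adjusted p 2.73e-09). In AhR-KO it was also called lower with LPS, at 0.364 to 1.15 CPM. With LPS the genotypes overlapped at peak 19 and were not called different. Peaks 17 and 18 beside it, picked later, were also called lower in AhR-KO without LPS, and with LPS in each genotype. All 3 peaks may belong to Dexi rather than to Ciita.

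**Figure D3:**
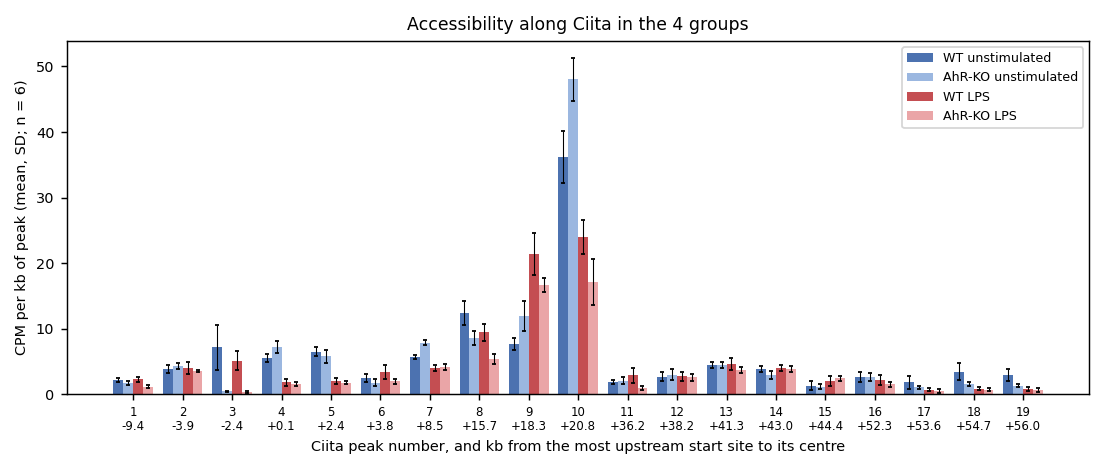
Mean CPM per kb of peak along Ciita in the 4 groups (bars, with the SD of 6 libraries), peaks in order from upstream to downstream and evenly spaced, with the distance of each centre from the most upstream start in kb under its number. Peak 3 is near 0 in both AhR-KO groups, peaks 4, 5 and 7 are lower with LPS in both genotypes, and at peaks 9 and 10 AhR-KO is above WT without LPS and below it with LPS.

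**Figure D4:**
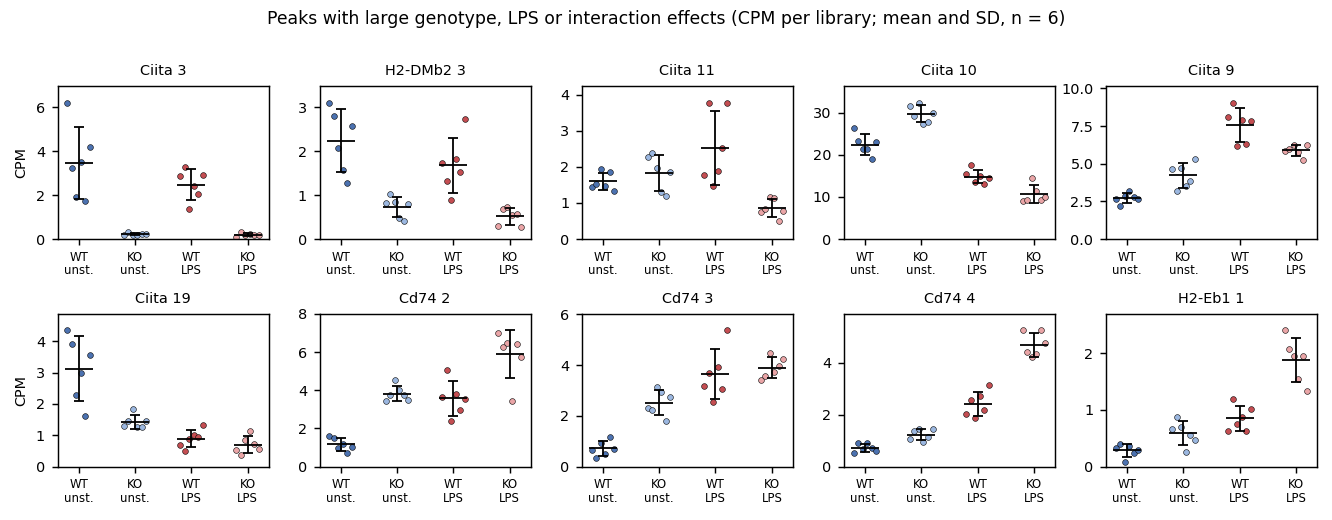
CPM of each library (points), with mean and SD of 6, at 10 peaks with calls for genotype, LPS or interaction. Ciita peak 3 and H2-DMb2 peak 3 are low in AhR-KO in both treatments, the means of Ciita peaks 9 to 11 change their genotype order with LPS, and Cd74 peak 4 and H2-Eb1 peak 1 are highest in AhR-KO with LPS.

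AhR-KO and WT libraries did not overlap at 15 member peaks without LPS, where 21% of all tested peaks did not overlap, and at 8 with LPS, where the share was 19.6%. For LPS against no stimulus, 28 member peaks in WT and 30 in AhR-KO did not overlap, with shares over all peaks of 38.7% and 45.6%. Of the 71 members, 28 were called in no comparison, a count for which the share over all tested peaks was not taken.

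Most start-site peaks of other pathway genes were called in no comparison, which does not mean that they were unchanged. Of 12 regulators of class II transcription, 11 had a peak over an annotated start, in 12 peaks, and none was called between genotypes. Irf8, an interferon-responsive factor of myeloid cells, was the exception with LPS. Its start-site peak fell with LPS in AhR-KO from 25.3 ± 2.78 to 14.8 ± 1.52 CPM (SD, n = 6), a log2 fold change of -0.77 (edgeR adjusted p 5.81e-11), and had means of 21.4 and 19.4 CPM in WT, with an interaction of -0.62 (edgeR adjusted p 0.000158). None of the 7 start-site peaks of the processing genes, which include the cathepsins and Lgmn, and none of the 3 for turnover of surface class II (March1, March8, Il10ra) was called in any comparison. Some of them shifted in AhR-KO unstimulated cells under the fold threshold. The log2 fold change was 0.50 at Il10ra, 0.39 at Ctss, -0.35 at Ctsl and -0.31 at Cst3 (edgeR adjusted p 5.33e-06, 0.0015, 8.91e-06 and 2.40e-06). Of 5 start-site peaks of class II region neighbours, 2 rose with LPS in both genotypes. They were Tap2, a subunit of the class I peptide transporter, by a log2 fold change of 0.65 in WT and 0.64 in AhR-KO, and H2-Eb2 by 0.79 and 0.61. The H2-Eb2 start-site peak is H2-Eb1 peak 7, and that of Brd2 is H2-DMa peak 3, so both are already among the 71. H2-Eb1 peak 7 is one of the 7 member peaks lower in AhR-KO with LPS, by -0.59 (edgeR adjusted p 0.00941), a call that held in 18 of the 24 fits without 1 library.

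The mean z-score of the start-site peaks of H2-Aa, H2-Ab1, H2-Eb1 and Cd74 over the 24 libraries was most like that of the start-site peaks of Ccl17, Nek8, Vps9d1, Arid5a and Necap2 among other protein-coding genes. Pearson's r on log2 CPM ran from 0.806 for Ccl17 to 0.782 for Necap2. These points share the libraries, their depth and their 4 groups, so r is a description. The averaged peaks did not share a profile. H2-Ab1 peak 3 correlated at -0.129 with H2-Aa peak 3, 0.176 with H2-Eb1 peak 2 and 0.261 with Cd74 peak 5. The others correlated with each other at 0.582 to 0.66.

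Markers of other cells that could be in the culture moved with genotype at some start sites. Over all tested peaks 22.6% were called between genotypes without LPS and 26.5% with it, in either direction. Shares over all start-site peaks were not taken, so the counts below cannot show whether any list stands apart. Among 7 start-site peaks of 6 dendritic cell genes, 3 were lower and 1 higher in AhR-KO without LPS, and 4 lower and 1 higher with it. Flt3, a dendritic cell growth factor receptor, had means of 9.07 ± 2.12 CPM in WT unstimulated and 4.09 ± 0.607 CPM in AhR-KO unstimulated (SD, n = 6), and Kmo 18.4 ± 4.77 and 6.14 ± 0.782 CPM. Of the 2 peaks of Zbtb46, a transcription factor of classical dendritic cells, the weaker was the one called higher in AhR-KO, at 0.798 ± 0.227 and 1.41 ± 0.243 CPM without LPS (log2 fold change 0.88, edgeR adjusted p 0.000273) and 0.859 ± 0.0981 and 2.47 ± 0.367 CPM with it (1.52, edgeR adjusted p 1.08e-09). Batf3 stayed under the fold threshold at 0.42 without LPS and -0.14 with it. The sum over the dendritic cell list ran from 58.0 to 85.3 CPM without and 62.9 to 104 CPM with LPS in WT, and from 58.9 to 67.6 and 55.7 to 61.6 CPM in AhR-KO. Of 2 mast cell peaks, Kit was lower in AhR-KO in both treatments, and the list summed to 12.2 to 16.2 CPM in WT unstimulated and 7.29 to 8.65 in AhR-KO unstimulated, and to 17.6 to 22.9 and 11.7 to 15 with LPS. Of 3 neutrophil peaks, S100a9 was lower in AhR-KO in both treatments and Ltf without LPS, and the list summed to 21.1 to 29.3 CPM and 24.8 to 28.8 CPM without LPS and to 15.1 to 23.1 and 17.3 to 20.3 with it. Macrophage genes had start-site peaks for 7 of 8 genes, among them Adgre1 at 21.3 to 22.5 CPM in the group means. None of these 7 peaks was called between genotypes. Their list still summed to 173 to 183 CPM in WT unstimulated and 190 to 226 CPM in AhR-KO unstimulated, without overlap. With LPS the macrophage sums were 161 to 177 and 158 to 198 CPM. Of 8 alveolar macrophage peaks 3 were higher in AhR-KO without LPS and 1 with it. That list summed to 97.6 to 117 CPM in WT unstimulated and 121 to 149 CPM in AhR-KO unstimulated, and to 60.0 to 72.3 and 62.4 to 70.1 with LPS. The B and T cell lists had start-site peaks for only 2 of 7 and 1 of 5 genes, with no call. Their sums in WT and AhR-KO unstimulated libraries ran from 7.10 to 8.83 and 5.57 to 7.25 CPM for B cells and from 1.93 to 3.37 and 2.14 to 3.39 CPM for T cells. The part of other cell types in the genotype differences at Ciita, H2-DMb2 and Cd74 was not tested.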

How the data were processed

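ATAC-seq libraries of 24 BMDM cultures in 4 groups of 6 were used. The authors processed the reads with the nf-core atacseq workflow on mm10, called broad peaks per library with MACS2, merged them into consensus peaks and counted read pairs per peak with featureCounts 2.0.1 (pairs overlapping several peaks counted for each, minimum overlap fraction 0.2). The deposited table holds raw counts, and the deposited peak lists hold the fold enrichment of each peak, used as a ratio, and its −log10 q-value, which was not used further than in checking the files.

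Peaks of the 10 genes were found with the basic GENCODE vM21 annotation on the build of the files. Of the 71, 17 lay in the windows of more than 1 member gene, and 4 also covered the start of another gene. All peaks were fitted together in R 4.3.3 with edgeR 4.0.16 (filterByExpr by group, TMM, trended dispersion, robust quasi-likelihood fit, group as the only term), p-values were adjusted over all 174193 tested peaks, and calls needed an adjusted p up to 0.05 with a fold from 1.5. The scripts were tested on simulated counts. Low-level peaks rest on few reads, so their folds carry the larger standard errors given. Peak calls per library depend on depth.

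Named peaks were those over a start of a member gene and, in each comparison, the 3 called peaks of smallest p in each direction, and H2-Aa peak 6, H2-Ab1 peak 2, H2-Ob peak 3 and Ciita peaks 11, 17 and 18 were added after their values were seen. The members, lists and rules were chosen with earlier results of these data known. Alternatives were DESeq2 1.42.0, its size factors in edgeR, no filter, other windows and fold thresholds, only the groups compared, replicate blocks and leaving out each library. Sequences came from RefSeq GRCm38.p6. Correlations used log2 of CPM plus 0.1.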

Additional observations from a re-analysis of the deposited data

Results flagged for a closer look

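Within 6 libraries of a group, single libraries stood apart by Dixon's test in 7 of the 108 sets of values at the named peaks, where chance flags about 1 in 20. These were AhR-KO LPS replicate 5 at H2-Oa peak 3 (13.4 CPM), H2-Ob peak 5 (15.1 CPM) and Ciita peak 5 (1.18 CPM), AhR-KO LPS replicate 4 at Cd74 peak 2 (3.44 CPM), AhR-KO unstimulated replicate 2 at Ciita peak 3 (0.325 CPM) and replicate 3 at Ciita peak 19 (1.84 CPM), and WT unstimulated replicate 4 at H2-DMb2 peak 4 (2.16 CPM).

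The genotype effect differed between LPS and no stimulus, by the edgeR interaction test, at 12 member peaks. The log2 difference was -0.59 at H2-Aa peak 3, -0.65 at H2-Aa peak 4, -0.69 at H2-Aa peak 6, -0.63 at H2-Ab1 peak 2, -0.59 at H2-DMa peak 2, -0.63 at Ciita peak 1, -0.60 at Ciita peak 4, -1.0 at Ciita peak 9, -0.89 at Ciita peak 10, -1.75 at Ciita peak 11, -0.95 at Cd74 peak 2 and -1.81 at Cd74 peak 3. Calls at H2-Aa peak 6, Ciita peaks 9, 10 and 11 and Cd74 peaks 2 and 3 held in all 24 fits without 1 library, and that at H2-Ab1 peak 2 in 23. The others held in 8 to 14.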

How the results depend on the processing

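Under DESeq2 and its size factors, without the filter and with only the groups compared, the counts of called member peaks stayed within 1.5 times of those given, and no named peak changed sign. Lower calls made up 56.0% of all genotype calls in unstimulated cells and 44.0% of interaction calls, and 48.4% and 52.5% with RLE scaling (48.6% and 53.5% by DESeq2). Shares over all tested peaks were not taken for the counts in the rest of this paragraph. Without a fold threshold the counts were 36 (AhR-KO against WT, unstimulated), 26 (with LPS), 41 (LPS in WT), 48 (LPS in AhR-KO) and 15 (interaction). At a fold of at least 2 they were 6, 5 and, for LPS in AhR-KO, 19, and 2 for the interaction. For peaks over the gene body only they were 5, 4, 11 (LPS in WT), 17 (LPS in AhR-KO) and 6 (interaction), fewer because fewer peaks were counted, and with windows of 5 kb the genotype count with LPS was 6. Leaving out 1 library gave 9 to 17 peaks for genotype unstimulated, 8 to 11 with LPS, 25 to 29 for LPS in WT, 31 to 35 in AhR-KO and 7 to 12 for the interaction.

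The labels give the replicate numbers no shared animal or day, and the samples were not treated as paired. Same-numbered deviations correlated at 0.0351 to 0.275 between the WT groups (over 0.1 in 5 of 6 pairs) and 0.00304 to 0.161 between the AhR-KO groups, and at -0.086 to 0.0454 without LPS and -0.127 to 0.208 with LPS across genotypes, so a pairing within genotype was neither shown nor excluded. With the replicate block 13, 9, 27, 33 and 11 peaks were called in the 5 comparisons. With a block by the sample numbers of the titles 14, 9, 27, 33 and 10 were called. Depth limits the weakest peaks most, since each AhR-KO library held only 3 to 9 reads at Ciita peak 3.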
